A study of Mus musculus with 24 samples.

Results

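The 68 genes described here encode the heat-shock proteins and the DnaJ proteins that work with them, measured in the mouse cochlea after noise or sham exposure. They were chosen by symbol from a table of 23420 rows. A symbol had to be Hspa, Hspb, Hspd, Hspe or Hsph followed by a number, or begin with Hsp90 or Dnaj, and Cryab, Hsf1 and Hsf2 were added. A summed count of at least 240 over the 24 libraries was required. Of 75 rows matching the symbols, 68 reached that minimum. The rule uses symbols and summed counts and no contrast between groups, although it was written with earlier results of these data known. The lowest member was Dnajc5b, with a summed count of 688, and the highest gene left out was Hspa1l, with 235. The other 6 genes left out (Dnajb7, Dnajb8, Dnajc22, Dnajc5g, Hspb3 and Hspb9) had summed counts of 0 to 97. By family, the members were 10 Hsp70, 3 Hsp110, 3 Hsp90, 2 chaperonin, 7 small heat-shock protein, 4 Dnaja, 11 Dnajb and 26 Dnajc genes, and the 2 heat-shock transcription factors Hsf1 and Hsf2.

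The study asked how glucocorticoid rhythms bear on the response of the ear to noise at different times of day. Whole cochleae came from CBA/Sca mice aged 12 weeks, and this strain and age were common to all 8 groups. Mice were adrenalectomized (ADX, removal of the adrenal glands, the source of corticosterone) or sham-operated. They met a 6 to 12 kHz noise at 100 dB SPL for 1 h or a sham exposure, by day or by night. The groups were therefore day sham exposure sham-operated, night sham exposure sham-operated, day noise sham-operated, night noise sham-operated, and the same 4 in ADX mice, with 3 libraries (a, b and c) in each. The series text places the noise at zeitgeber time (ZT, hours after lights on) 3 and 15 with collection 2 hours later, which is ZT 6 and ZT 18, whereas the sample labels give ZT 11 and ZT 23. The groups are called day and night for that reason. Whether the 3 libraries of a group were separate animals is not in the labels, so the p-values measure the spread between these libraries, which may be technical.

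Chaperones bind unfolded or partly folded proteins and help them fold, be transported or be degraded. Hsp70 proteins do this in cycles of ATP hydrolysis that are started by DnaJ partners and reset by nucleotide exchange factors of the Hsp110 family, and Hsp90 proteins take over clients such as steroid receptors, the glucocorticoid receptor among them. When unfolded protein accumulates, Hsf1 binds heat-shock elements in the promoters of inducible genes such as Hspa1a, Hspa1b, Hspb1, Dnajb1 and Hsph1. Inside the endoplasmic reticulum (ER) the unfolded protein response raises Hspa5, Hsp90b1 and their DnaJ partners through a different promoter element. In the inner ear, heat-shock induction of Hsp70 is known to protect sensory hair cells against ototoxic drugs.

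Each library held 18894996 to 36108962 counts, and the 68 members together took 1.12% to 1.59% of a library's counts. No pair of libraries within a group agreed within sampling noise. All 68 members were among the 16607 genes that passed the filter on low counts and were tested. All 14 cochlear marker genes were detected both by day and at night, with summed levels per library of 5030 to 8130 CPM (counts-per-million). Libraries that stood apart were night noise ADX a, where pituitary markers summed to 9850 CPM against 2.48 to 137 CPM in the others, and library b of the night noise and of the day sham exposure groups of sham-operated mice, where cerebellar markers summed to 171 and 207 CPM against 33.5 to 83.5 CPM. Results are given with and without these 3 libraries where that changed a call. In whole cochlea, fewer cells of a type and less RNA per cell cannot be told apart.

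Per kilobase of exon, the most abundant members were the constitutive cytosolic and ER chaperones. Hsp90ab1, the constitutive cytosolic Hsp90, had a mean of 716 ± 101 CPM per kilobase (SD, n = 24 libraries). Hspa8, the constitutive cytosolic Hsp70, had 637 ± 93.4 on the same scale, and Hsp90aa1, the other cytosolic Hsp90, had 355 ± 54. The ER-resident pair Hsp90b1 (Grp94) and Hspa5 (BiP) followed at 264 ± 35.6 and 238 ± 31.1 CPM per kilobase. Cryab, the small heat-shock protein alpha-B crystallin, ranked next at 187 ± 27.1, and Hspb1 and the mitochondrial chaperonin Hspd1 were both at 104 CPM per kilobase, with SDs of 37.7 and 10.6. The stress-inducible Hsp70 genes were far lower, with Hspa1b at 7.61 ± 3.94 (rank 44 of 68) and Hspa1a at 3.71 ± 1.71 (rank 56). Among DnaJ genes the levels per kilobase ran from 46.7 for Dnajc3, an ER-luminal DnaJ protein, and 46.2 for Dnaja2, a cytosolic Hsc70 partner, down to 0.824 for Dnajb13, which is known from the radial spokes of motile cilia. Dnajb11 (38.5) led the Dnajb genes, Dnajc5b (0.912) was lowest of the Dnajc genes, and Dnaja3 (17) lowest of the Dnaja genes. Hspa4 (48.8) and Hspa4l (15.5) were the highest and lowest of the Hsp110 genes, and Hsf1 (7.85) exceeded Hsf2 (2.08). Hspb7, a small heat-shock protein of heart and skeletal muscle, was lowest of all at 0.596 CPM per kilobase.

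**Figure D1:**
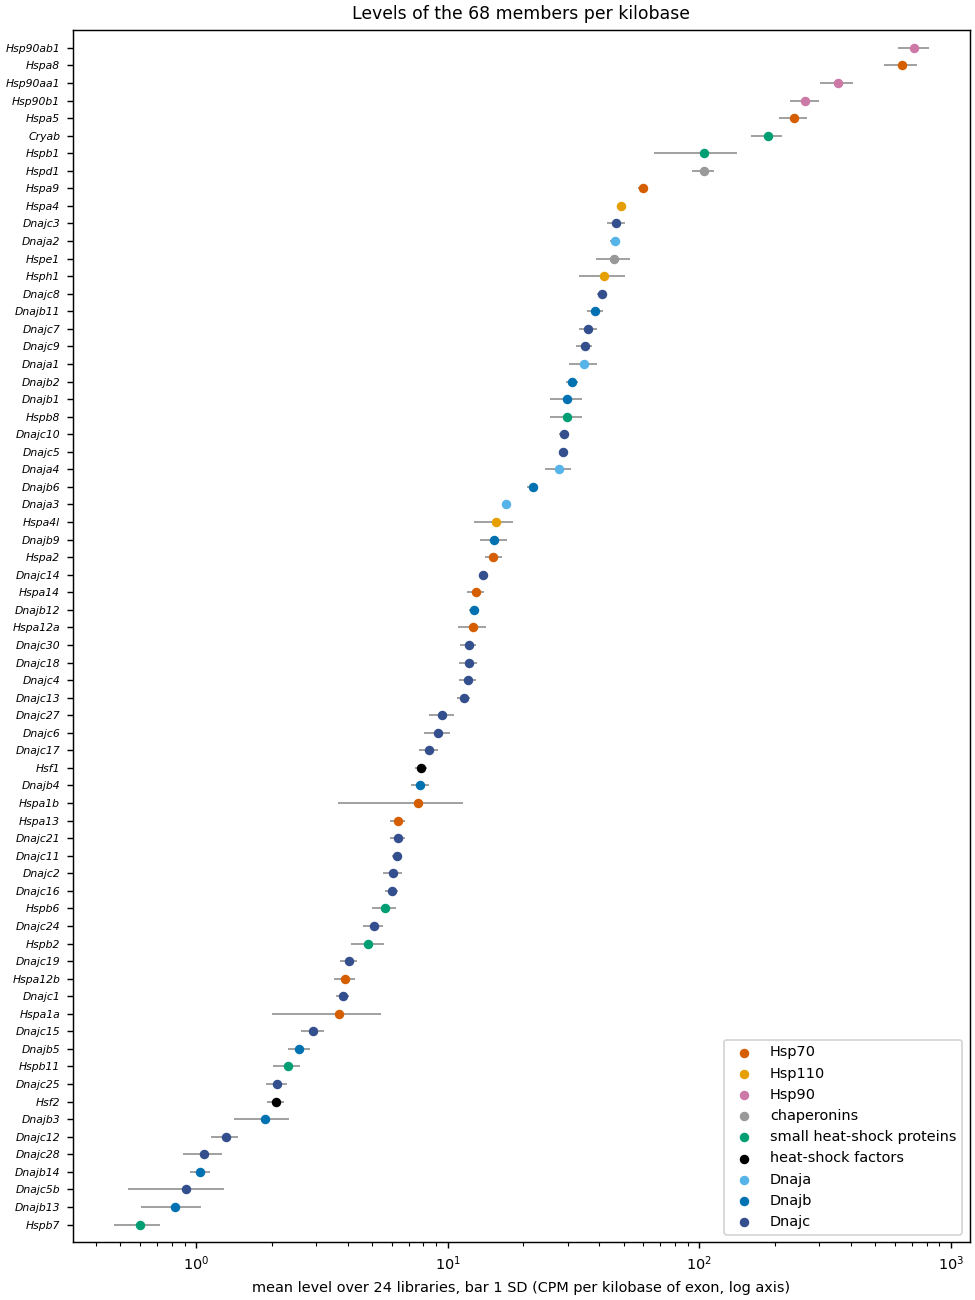
Mean level of each of the 68 members over the 24 libraries, in CPM per kilobase of exon on a log axis (points coloured by family; bars, 1 SD). Hsp90ab1 (716) and Hspa8 (637) lie at the top and Hspb7 (0.596) at the bottom.

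Reads of 50 bases cannot always separate near-identical genes, and this touches several members. Of the 50-base windows in Hspa1a transcripts, 58.8% also occur in Hspa1b, and 62.3% of those in Hspa1b also occur in Hspa1a, so counts of the pair are uncertain individually. Windows shared with other genes or pseudogenes made up 48.8% for Hspb1, 47.5% for Hsp90aa1, 39.7% for Hspd1 and 38.6% for Hspa8. Cryab and Hspb2 lie on opposite strands and share 252 exon bases, Hspd1 and Hspe1 share 112, and Dnajc7 shares 154 with Cnp. The strand setting of the counting is not given in the sources used here, so reads of such partners may have been mixed.

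Several of the most abundant chaperone transcripts were higher at night. Averaged over the noise and surgery groups, 11 of 68 members were higher at night and 0 lower, where 3.76% of all genes tested were called higher and 2.25% lower. The 11 were all 3 Hsp90 genes, both abundant constitutive Hsp70 genes, the Hsp110 gene Hspa4l, the small heat-shock proteins Cryab and Hspb1, and 3 DnaJ genes. The differences were small, from 1.08-fold for Dnajc13 to 1.54-fold for Hspb1. The median over the 68 members was a log2 difference of 0.019 (night minus day), beside -0.002 over all genes, so most members lay near 0. An unadjusted p under 0.05 was reached by 20 members (29.4%, against 21.3% of all genes), and DESeq2 called 14. All adjusted p-values are Benjamini-Hochberg values over all genes tested, from edgeR's quasi-likelihood test.

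The small heat-shock proteins held the clearest and the largest of these differences. Cryab, which holds partly unfolded proteins in solution and is abundant in muscle and lens, had 221 to 269 CPM (median 240) in the 12 day libraries and 263 to 357 CPM (median 308) in the 12 night libraries. Within each pairing of noise and surgery, all 3 night libraries lay above all 3 day libraries. How many of all genes tested separate in this way was not computed, here or for the members below. In noise-exposed sham-operated mice the day libraries a, b and c had 233, 221 and 262 CPM and the night libraries 309, 332 and 357 CPM. The mean log2 difference of Cryab was 0.35 (SE 0.0344, adjusted p = 3.03e-06). Hspb1 (Hsp25 in the mouse), which binds actin as well as unfolded protein, had 49.7 to 130 CPM (median 80) by day and 83.1 to 184 CPM (median 139) at night, a log2 difference of 0.63 (SE 0.114, adjusted p = 0.00241). The 3 night libraries of Hspb1 lay above the 3 day libraries in 3 of the 4 pairings. The exception was noise-exposed ADX mice, where day libraries had 94.9, 100 and 118 CPM and night libraries 162, 91.7 and 84.7 CPM. The 162 CPM came from the library with pituitary transcripts, and the other 2 night libraries lay below all 3 day libraries. The other 5 small heat-shock protein genes, Hspb2, Hspb6, Hspb7, Hspb8 and Hspb11 (an intraflagellar transport protein despite its name), were not called. Hspb6 and Hspb7, both muscle-rich, had log2 differences of -0.14 (adjusted p = 0.209) and -0.19 (adjusted p = 0.455).

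All 3 Hsp90 genes were called higher at night, Hsp90b1 and Hsp90ab1 whichever library was left out and Hsp90aa1 in 10 of 24 such fits. Hsp90b1, the Hsp90 of the ER lumen, had 826 to 1090 CPM (median 916) by day and 1030 to 1260 CPM (median 1180) at night, with every night library above every day library within each of the 4 pairings. Its log2 difference was 0.33 (SE 0.0432, adjusted p = 9.93e-05). Hsp90ab1 had 1670 to 2290 CPM (median 1880) by day and 2070 to 2680 CPM (median 2380) at night, and its log2 difference was 0.29 (SE 0.0526, adjusted p = 0.00185). Its groups did not overlap in 2 of the 4 pairings. Hsp90aa1, the stress-responsive cytosolic Hsp90, had 1050 to 1670 CPM (median 1260) by day and 1220 to 1830 CPM (median 1500) at night, with a log2 difference of 0.23 (SE 0.0643, adjusted p = 0.04).

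Among the Hsp110 and Hsp70 genes, Hspa4l, a nucleotide exchange factor of the Hsp110 family, had the clearest difference. It had 134 to 188 CPM (median 158) by day and 167 to 257 CPM (median 204) at night, with no overlap within any of the 4 pairings (log2 difference 0.34, SE 0.0478, adjusted p = 0.000196). Its relatives Hspa4 and Hsph1 were not called, and Hsph1 had a log2 difference of 0.17 (adjusted p = 0.362). Hspa8 had 2050 to 3150 CPM (median 2440) by day and 2590 to 3440 CPM (median 2990) at night, so day and night ranges overlapped widely (log2 difference 0.24, SE 0.0656, adjusted p = 0.0321). Hspa5, the ER Hsp70 and sensor partner of the unfolded protein response, had 772 to 1170 CPM (median 945) by day and 934 to 1190 CPM (median 1060) at night (log2 difference 0.21, SE 0.0562, adjusted p = 0.0312). Hspa9, the mitochondrial Hsp70, had a median of 262 CPM by day and 260 CPM at night. The chaperonins Hspd1 and Hspe1, which form the mitochondrial folding chamber with its lid, had log2 differences of 0.12 (adjusted p = 0.165) and 0.20 (adjusted p = 0.0736) and were not called.

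Of the 41 DnaJ genes, 3 were called higher at night and 0 lower, beside 3.76% of all genes tested called higher and 2.25% lower. So few calls are not read as a trait of the DnaJ genes. Dnajb11, the ER partner of Hspa5, had 109 to 136 CPM (median 116) by day and 124 to 138 CPM (median 131) at night (log2 difference 0.15, SE 0.0316, adjusted p = 0.00679). Dnajc13, an endosomal DnaJ protein, had 124 to 139 CPM by day and 136 to 158 CPM at night (log2 difference 0.12, adjusted p = 0.00216). Dnajb5 had 12.7 to 16.2 CPM by day and 13.5 to 18.2 CPM at night (log2 difference 0.16, adjusted p = 0.0254). The ranges of all 3 overlapped between day and night. Dnaja1 and Dnajb1, the main cytosolic DnaJ partners of Hsp70, had log2 differences of 0.04 (adjusted p = 0.78) and 0.12 (adjusted p = 0.361). Hsf1 and Hsf2 had 0.07 (adjusted p = 0.206) and 0.09 (adjusted p = 0.241).

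**Figure D2:**
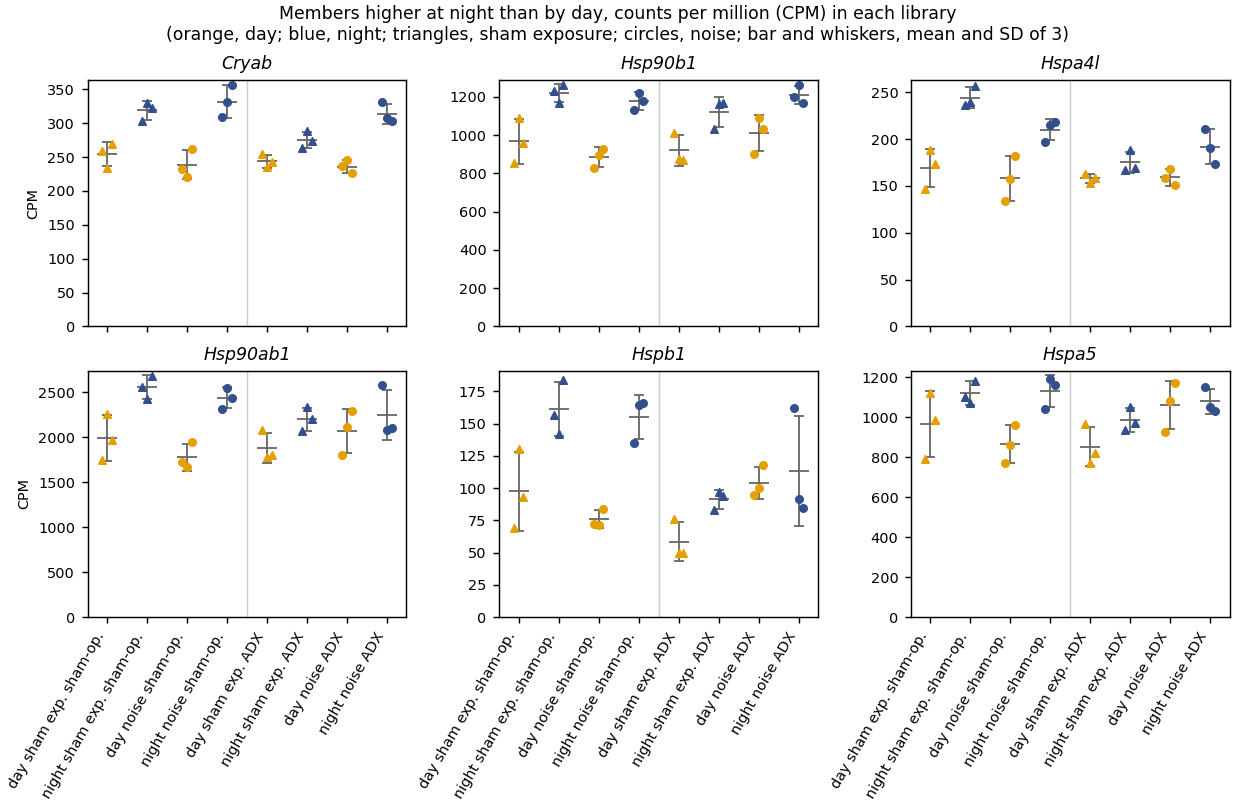
CPM of 6 members called higher at night in each of the 24 libraries, by group (orange, day; blue, night; triangles, sham exposure; circles, noise; bars, mean and SD of 3). Cryab, Hsp90b1 and Hspa4l show no overlap between day and night within any pairing, whereas Hspa5 overlaps. The 6 were drawn from members called on this difference, so the lack of overlap is no further support. Its share among all genes tested was not computed.

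Leaving out night sham exposure sham-operated c reduced the 11 calls to 7: Hspa5, Hspa8, Hsp90aa1 and Dnajb5 then had adjusted p-values of 0.0578 to 0.0834, and the other 7 passed whichever single library was left out. Other libraries mattered too: over the 24 fits that each leave out 1 library, Hsp90aa1 passed in 10, Hspa8 in 15, Hspa5 in 16 and Dnajb5 in 20. Without the 3 libraries that carried pituitary or cerebellar transcripts, 9 were called, and Dnajb5 and Hspa8 were not. Skeletal muscle markers, which could carry Cryab and Hspb1, summed to 85.4 to 214 CPM by day (median 104) and 88.6 to 190 CPM at night (median 102), with 0 of 16 at 0 throughout either period. Their list median log2 difference was -0.424 on average. By pairing it was -0.66 and 0.473 in sham-exposed and noise-exposed sham-operated mice, and -1.579 and -0.174 in the same ADX groups. With muscle marker level as a covariate, Cryab and Hspb1 were still called on average. Neuron markers had a median of 2090 CPM in both periods but moved in different directions by pairing, as given below, and 1 of 8 (Tubb3) was called higher at night on average. Cochlear markers had medians of 6280 CPM by day and 6650 CPM at night.

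Taken pairing by pairing, fewer members passed. In sham-exposed sham-operated mice, 3 members were higher at night and 0 lower, beside 0.157% and 0.108% of all genes: Hspa4l (log2 0.53, adjusted p = 0.0211), Cryab (0.33, adjusted p = 0.0441) and Dnajc13 (0.20, adjusted p = 0.046). For Hspa4l the day libraries a, b and c had 147, 188 and 173 CPM and the night libraries 236, 240 and 257 CPM. These 3 calls were not stable, since none was made when day library a or c, or night library b or c, was left out, and 1 when day library b was left out. In the same libraries neuron markers summed to 1970, 1820 and 1550 CPM by day and 2100, 2560 and 2560 CPM at night, without overlap, with a list median log2 difference of 0.412 and Tubb3 called higher. Their part in the result was not tested. In noise-exposed sham-operated mice, 6 members were higher at night and 0 lower, beside 0.807% and 0.313% of all genes. Cryab (log2 0.48, adjusted p = 0.000968) passed whichever library of these groups was left out. Hsp90b1 (0.42, adjusted p = 0.0206), Hspb1 (1.03, adjusted p = 0.0332), Hsp90ab1 (0.45, adjusted p = 0.039), Hspa4l (0.41, adjusted p = 0.04) and Dnajb11 (0.26, adjusted p = 0.0464) did not, and 1 call was made without day library a or b or night library b or c. Without the 3 libraries with pituitary or cerebellar transcripts, 2 calls were made in this pairing. In these 6 libraries neuron markers summed to 2390, 2320 and 2490 CPM by day and 1900, 2020 and 2080 CPM at night (list median log2 difference -0.083), and their part in the result was not tested.

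In ADX mice, sham-exposed animals had 0 members called between night and day, beside 0.0181% of all genes, with 5 members (7.35%, all genes 6.25%) at an unadjusted p under 0.05 and 0 called by DESeq2. In noise-exposed ADX mice only Cryab was called higher and 0 lower, beside 0.373% and 0.247% of all genes. Its day libraries had 237, 246 and 226 CPM and its night libraries 331, 308 and 303 CPM (log2 0.41, adjusted p = 0.00913). Without day library c that call was lost (0 members called), and without day library a 3 members were called. Without night library a, which carried the pituitary transcripts, the log2 difference of Cryab was 0.36 (adjusted p = 0.0204). In these libraries erythroid markers summed to 3600, 3630 and 3940 CPM by day and 3370, 3010 and 2030 CPM at night. Neutrophil and myeloid markers had a list median log2 difference of -0.345 and glial markers one of 0.289. The part of these markers in the result was not tested. The smaller number of calls in ADX mice does not show a smaller night difference. The test of the difference itself (time by ADX interaction) called 0 members and 0% of all genes, with 9 members (13.2%, all genes 6.67%) at an unadjusted p under 0.05 and 0 by DESeq2. Hspa4l had an interaction of -0.26 (SE 0.0956, adjusted p = 0.647), Hsp90aa1 -0.31 (SE 0.128, adjusted p = 0.663) and Hspb1 -0.50 (SE 0.226, adjusted p = 0.724), each negative where the night difference was smaller in ADX mice.

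Hspa5, Hsp90b1 and Dnajb11, which act together in the ER lumen, were all among the 11 members higher at night. The promoter element described next was found in a different set of 3 ER members, and its part in the night difference was not tested. The ER stress response element bound by the unfolded protein response factors ATF6 and NF-Y was searched on both strands as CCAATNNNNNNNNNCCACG or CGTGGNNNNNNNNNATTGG in the 250 bases before each start in the RefSeq promoter table (GRCm38.p6), which held 53 of the 68 members. It occurs in 0.113% of 32851 windows and in 4.29% of the 70 member windows, those of Hspa5, Dnajc3 and Hsp90b1, the last with 2 matches. The stretches below run 5′ to 3′ on the gene's strand, with the element in capitals. They are shown because they are the members whose promoters hold it: Hspa5 at chr2:34772020-34772049 (plus strand), Hsp90b1 at chr10:86705510-86705694 (minus strand) and Dnajc3 at chr14:118937682-118937931 (plus strand).
Hspa5: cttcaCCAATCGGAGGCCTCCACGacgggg
Hsp90b1: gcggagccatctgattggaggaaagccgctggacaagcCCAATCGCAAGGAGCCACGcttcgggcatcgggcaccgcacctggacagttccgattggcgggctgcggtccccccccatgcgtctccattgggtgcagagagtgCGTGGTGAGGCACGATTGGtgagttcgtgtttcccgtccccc
Dnajc3: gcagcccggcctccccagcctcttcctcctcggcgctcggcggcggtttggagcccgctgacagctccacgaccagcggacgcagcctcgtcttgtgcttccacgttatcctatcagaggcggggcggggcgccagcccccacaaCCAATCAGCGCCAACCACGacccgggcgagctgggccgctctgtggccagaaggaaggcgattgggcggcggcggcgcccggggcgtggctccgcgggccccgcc
The match of Hspa5 lies 65 to 47 bases before the start, that of Dnajc3 105 to 87, and those of Hsp90b1 212 to 194 and 107 to 89. Hspa5 and Hsp90b1 were called higher at night. Dnajb11, also called, had no match listed, and whether the promoter table held it is not given here. Dnajc3, the ER-luminal DnaJ protein also known as p58IPK, had 209 to 260 CPM by day and 226 to 282 CPM at night, a log2 difference of 0.11 that did not pass (adjusted p = 0.0754). A match describes these letters only and shows no binding.

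Other genes of the chaperone pathways were taken from lists drawn up by function. Of 20 genes of the unfolded protein response and ER chaperones outside the 68, 8 were higher at night and 0 lower, with a list median log2 difference of 0.067 (all genes, -0.002). They were the calcium-binding lectin chaperones Calr (0.33, adjusted p = 7.78e-06) and Canx (0.11, adjusted p = 0.0179), the disulfide isomerases Pdia6 (0.32, adjusted p = 2.68e-05), Pdia3 (0.25, adjusted p = 0.000118) and Pdia4 (0.23, adjusted p = 0.000773), the Hspa5 exchange factor Hyou1 (0.21, adjusted p = 0.00991), and Sdf2l1 (0.29, adjusted p = 0.00802) and Creld2 (0.27, adjusted p = 0.0218). Of 22 co-chaperones of Hsp70 and Hsp90, 4 were higher and 0 lower: Fkbp4 (0.23, adjusted p = 0.000266), an immunophilin of steroid receptor complexes, St13 (0.18, adjusted p = 0.00365), Ahsa1 (0.20, adjusted p = 0.023), which stimulates the Hsp90 ATPase, and Stip1 (0.19, adjusted p = 0.0431), which links Hsp70 to Hsp90. None of 13 tested genes of the cytosolic chaperonin TRiC and prefoldin and none of 10 genes of mitochondrial protein quality control passed, with list medians of 0.022 and -0.002.

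Noise moved few members, and by little. Averaged over period and surgery, 6 of 68 were higher after noise and 0 lower, beside 2.4% of all genes higher and 2.4% lower, and the median member had a log2 difference of 0.032 (all genes, 0). An unadjusted p under 0.05 was reached by 10 members (14.7%), a smaller share than the 18.7% of all genes, and DESeq2 called 7. The 6 were 4 Dnajb genes and 2 Hsp70 genes, with folds between 1.06 and 1.13.

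Dnajb6, a DnaJ protein that suppresses protein aggregation, had 119 to 133 CPM (median 126) in the 12 sham-exposed libraries and 131 to 149 CPM (median 137) in the 12 noise-exposed libraries, so the groups overlapped only between 131 and 133 CPM. Its log2 difference was 0.12 (SE 0.0244, adjusted p = 0.00456). Dnajb5 had 12.7 to 15.9 CPM (median 14.4) after sham exposure and 14.3 to 18.2 CPM (median 16.5) after noise (log2 difference 0.18, SE 0.041, adjusted p = 0.012). Hspa9 had 235 to 263 CPM (median 247) and 251 to 275 CPM (median 264) respectively (log2 difference 0.09, SE 0.0213, adjusted p = 0.014). These 3 passed whichever single library was left out. Dnajb4 (0.13, adjusted p = 0.0474), Dnajb9 (0.16, adjusted p = 0.0474), an ER DnaJ protein, and Hspa13 (0.11, adjusted p = 0.0499), a microsomal Hsp70 relative, lay close to the threshold. With 1 library left out the count of 6 fell to 3 for day noise ADX b, day noise sham-operated c, night noise ADX a, night noise sham-operated b, day sham exposure ADX a, b or c, day sham exposure sham-operated a or c, night sham exposure ADX a, and night sham exposure sham-operated a or b. Without the 3 libraries with pituitary or cerebellar transcripts 2 members were called, and Hspa9 was not among them. Cochlear markers Gjb6 and Gjb2 were lower after noise, and the median over the 14 markers was a log2 difference of -0.104, whose part in the result was not tested.

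Among the other chaperone genes, Ddit3 (0.30, adjusted p = 0.00112) and Atf4 (0.11, adjusted p = 0.0228), transcription factors of the integrated stress response, were higher after noise, 2 of 20 in their list. In the lists of co-chaperones, TRiC and prefoldin, and mitochondrial quality control, 0 genes passed for noise by edgeR, with list medians of 0.005, 0.053 and 0.024.

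The noise effect was also taken in each period and surgery group. By day in sham-operated mice 0 members were called, beside 0.247% of all genes, with 8 members (11.8%, all genes 8.31%) at an unadjusted p under 0.05 and 0 by DESeq2. At night in sham-operated mice 0 were called, beside 0.717% of all genes, with 4 members (5.88%, all genes 8.41%) at an unadjusted p under 0.05 and 1 called by DESeq2. At night in ADX mice 0 were called, beside 0.5% of all genes, with 8 members (11.8%, all genes 10.2%) at an unadjusted p under 0.05 and 0 by DESeq2. By day in ADX mice 4 members were higher after noise and 0 lower, beside 2.01% of all genes higher and 2.01% lower.

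Those 4 were Hspb8, Hspa13, Dnajb9 and Hspb1. Hspb8, a small heat-shock protein that works with Bag3 in selective autophagy, had 48.3, 44.8 and 44.7 CPM in day sham exposure ADX libraries a, b and c and 58.7, 61.8 and 64 CPM in day noise ADX libraries (log2 0.42, SE 0.101, adjusted p = 0.0229). Hspb1 had 75.8, 49.7 and 49.7 CPM after sham exposure and 94.9, 100 and 118 CPM after noise (log2 0.84, SE 0.229, adjusted p = 0.0457). Dnajb9 had 35.5, 33.2 and 35.6 CPM and 42.8, 46.1 and 42.7 CPM (log2 0.34, adjusted p = 0.043). Hspa13 had 40.5, 39.3 and 39.9 CPM and 47.3, 50.6 and 44.7 CPM (log2 0.25, adjusted p = 0.0338). None of the 4 genes overlapped between these groups, but they were called on the same difference. How many of all genes tested separate in this way was not computed. The number of calls depended on single libraries: among the noise libraries, leaving out a, b or c gave 9, 0 or 1 calls, and among the sham-exposed libraries 1, 0 or 0. In the same libraries erythroid markers summed to 2440, 2690 and 3030 CPM after sham exposure and 3600, 3630 and 3940 CPM after noise, and neutrophil and myeloid markers to 6250, 8540 and 7030 CPM and 6980, 12700 and 10100 CPM. Their part in the result was not tested.

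Whether the noise effect differed between surgeries was tested directly. The noise by ADX interaction called 0 members and 0% of all genes, with 12 members (17.6%, all genes 8.48%) at an unadjusted p under 0.05 and 1 called by DESeq2. Hspb8 had an interaction of 0.42 (SE 0.101, adjusted p = 0.241) and Hspb1 one of 0.79 (SE 0.227, adjusted p = 0.295), both positive where the noise effect was larger in ADX mice. In sham-operated mice by day Hspb8 had 62.8, 59.1 and 64 CPM after sham exposure and 56.4, 56.7 and 60 CPM after noise. The noise by time interaction called 0 members, beside 0.00602% of all genes, with 1 member (1.47%, all genes 5.5%) at an unadjusted p under 0.05 and 0 by DESeq2.

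**Figure D3:**
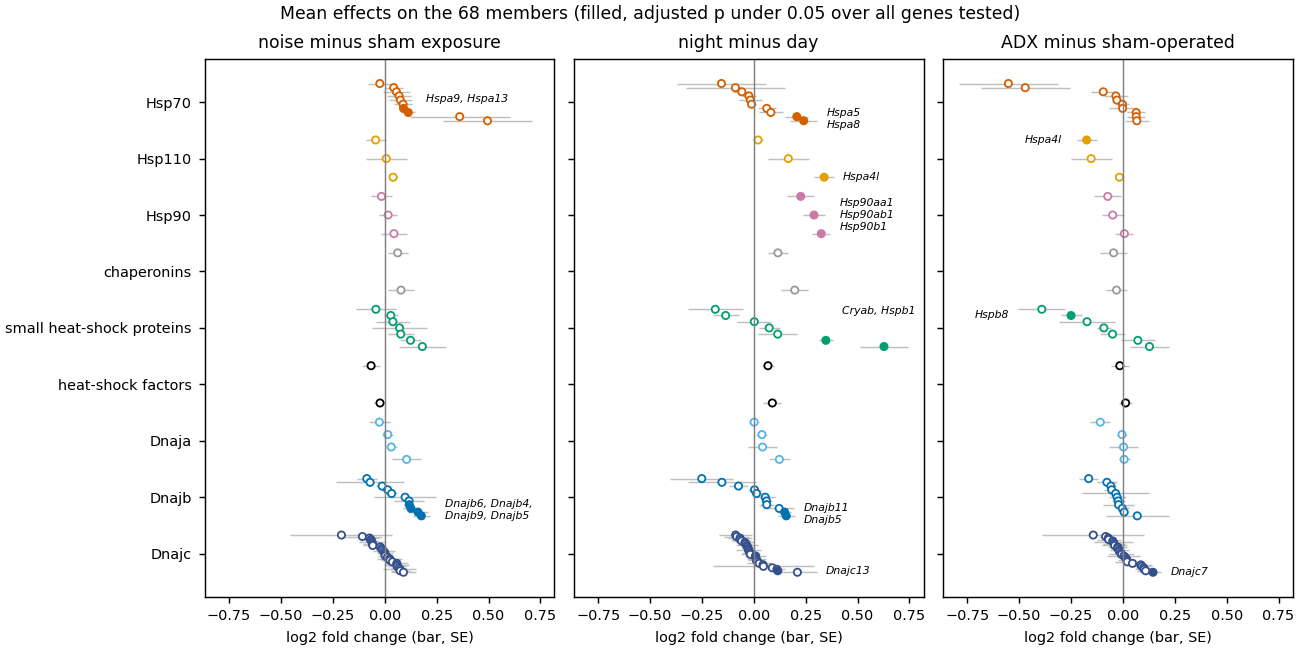
Log2 fold change of each of the 68 members for noise, night and ADX, each averaged over the other factors (points, grouped by family; bars, SE; filled, adjusted p under 0.05). The night panel holds 11 filled points, all above 0, against 6 for noise and 3 for ADX.

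Of the heat-inducible genes named at the start, Hspa1a, Hspa1b, Hsph1 and Dnajb1 passed in none of the 18 comparisons. Hspb1, also named there, was called higher at night on average and in noise-exposed sham-operated mice, and after noise by day in ADX mice. Promoters of such genes carry heat-shock elements, which were searched on both strands in the same 250-base windows. A pair of inverted units (GAANNTTC or TTCNNGAA) occurs in 12.8% of all windows and in 21.4% of the 70 member windows. These belong to 13 members, among them Hspa1a, Hspa1b, Hspb1, Hsph1, Dnaja1 and Dnaja4. Dnajb1 had no match listed. An array of 3 units (GAANNTTCNNGAA or TTCNNGAANNTTC), which contains the pair, occurs in 0.466% of all windows and in 5.71% of member windows, those of Hspd1, Hspe1 and Dnajb6. The matches of Hspd1 and Hspe1 are the same bases, read on opposite strands, so they are not separate sites. The stretches below show the element in capitals, 5′ to 3′ on the gene's strand. They cover Hspa1a at chr17:34972157-34972406 and Hspa1b at chr17:34959239-34959488 (both minus strand), Hspb1 at chr5:135887669-135887918 (plus strand), Hspd1 at chr1:55088053-55088082 (minus strand) and Dnajb6 at chr5:29735844-29735873 (plus strand), because these members span the range from uncalled to called.
Hspa1a: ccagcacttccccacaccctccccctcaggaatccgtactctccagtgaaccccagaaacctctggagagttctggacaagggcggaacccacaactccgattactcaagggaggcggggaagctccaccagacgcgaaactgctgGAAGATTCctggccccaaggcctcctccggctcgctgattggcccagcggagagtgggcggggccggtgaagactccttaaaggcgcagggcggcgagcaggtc
Hspa1b: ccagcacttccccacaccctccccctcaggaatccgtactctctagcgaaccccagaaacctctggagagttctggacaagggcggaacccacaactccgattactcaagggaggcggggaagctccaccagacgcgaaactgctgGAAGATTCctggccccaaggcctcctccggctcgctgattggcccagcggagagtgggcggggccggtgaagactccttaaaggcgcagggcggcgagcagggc
Hspb1: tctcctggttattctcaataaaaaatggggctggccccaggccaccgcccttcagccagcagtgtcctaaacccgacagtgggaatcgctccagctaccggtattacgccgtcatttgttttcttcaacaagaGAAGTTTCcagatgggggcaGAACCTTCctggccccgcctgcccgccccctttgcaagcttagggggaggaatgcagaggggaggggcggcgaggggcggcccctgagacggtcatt
Hspd1: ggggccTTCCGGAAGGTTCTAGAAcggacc
Dnajb6: agctccgaGAATCTTCCGGAAcgctagacc
The Hspa1a and Hspa1b windows are identical at 247 of 250 positions (98.8%). The single match in each lies 104 to 97 bases before the start, and those of Hspb1 lie 117 to 110 and 97 to 90 bases before it. Among members with the array of 3 units, Dnajb6 was called higher after noise. Hspd1 and Hspe1, whose array is the same site, had log2 differences of 0.06 (adjusted p = 0.55) and 0.08 (adjusted p = 0.57). The palindromic E-box CACGTG occurs in 6.02% of all windows and 8.57% of member windows, in 6 members (Dnajb9, Dnajc1, Dnajc16, Hsf2, Hspd1 and Hsph1). The cyclic AMP response element TGACGTCA occurs in 1.55% of all windows and 1.43% of member windows, in Dnajc27.

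Hspa1b, an inducible Hsp70 gene, had 7.43 to 43.9 CPM (median 15.8) in the 12 sham-exposed libraries and 11 to 45.1 CPM (median 22.8) in the 12 noise-exposed libraries. The ranges overlapped almost completely, and the mean log2 difference was 0.36 (95% confidence interval -0.142 to 0.865, adjusted p = 0.46). Hspa1a had 4.32 to 19.7 CPM (median 8.23) and 5.75 to 22.2 CPM (median 11.5), a log2 difference of 0.50 (95% confidence interval 0.046 to 0.944, adjusted p = 0.215). Hsph1, an inducible exchange factor, had a log2 difference of 0.007 (95% confidence interval -0.2 to 0.215), and Dnajb1 one of 0.12 (adjusted p = 0.418). The intervals of Hspa1a and Hspa1b are wide, and a p that misses the threshold does not show that these genes did not respond.

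In ADX mice by day the inducible pair did not overlap between noise and sham exposure, but neither gene passed the test. Hspa1b had 19.7, 7.43 and 9.3 CPM in day sham exposure ADX libraries a, b and c and 20.9, 28.5 and 45.1 CPM in day noise ADX libraries (log2 1.38, SE 0.486, adjusted p = 0.106). Hspa1a had 9.88, 5.05 and 4.32 CPM and 11.3, 16.4 and 22.2 CPM (log2 1.38, SE 0.433, adjusted p = 0.0767). All 3 noise libraries lay above all 3 sham libraries for both genes, by a narrow margin between day sham exposure ADX a and day noise ADX a. The genes of this pair share sequence, so they are not separate observations. How many of all genes tested separate in this way was not computed. An unadjusted p under 0.05 was reached in this comparison by 22.1% of members and 23.5% of all genes tested. In sham-operated mice by day the groups overlapped, with Hspa1b at 11.9, 43.9 and 21.5 CPM after sham exposure and 15.1, 15.9 and 24.9 CPM after noise. The noise by ADX interaction of Hspa1b was 1.12 (SE 0.481, adjusted p = 0.539).

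**Figure D4:**
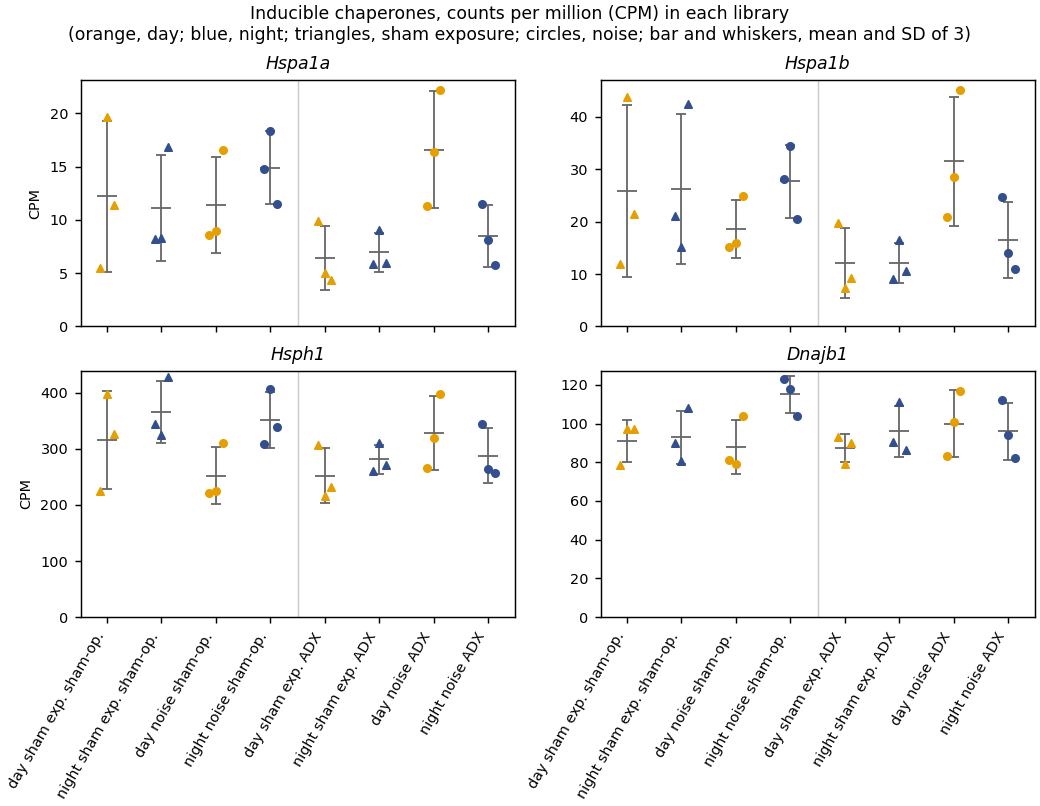
CPM of Hspa1a, Hspa1b, Hsph1 and Dnajb1 in each of the 24 libraries, by group (orange, day; blue, night; triangles, sham exposure; circles, noise; bars, mean and SD of 3). Hspa1b runs from 7.43 to 45.1 CPM, and within the day sham exposure sham-operated group alone from 11.9 to 43.9 CPM. The 43.9 CPM is that of library b, which carried cerebellar transcripts.

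Hspa1b and Hspa1a varied more between libraries of 1 group than most genes did. The within-group SD of log2 CPM was 0.628 for Hspa1b, larger than for 96.6% of the genes tested, and 0.567 for Hspa1a, larger than for 95% of them. Their highest library exceeded their lowest by 6.07-fold and 5.14-fold. Hspb1 (0.297, larger than for 82.7% of genes), Hsph1 (0.266, 79.8%) and Dnajb1 (0.195, 69%) varied less. Hspa9 (0.037) and Hspa4 (0.039) varied least, and the median over members was 0.117 against 0.133 over all genes tested.

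Within a group, several chaperones peaked in the same library as Hspa1b. In all 8 groups the library with the most Hspa1b was also the highest of its 3 for Hspa1a, Hsp90ab1, Hspa5, Hspa8, Hspd1 and Hsph1. In 7 groups it was so for Dnaja1, Dnaja4, Dnajb1, Hsp90aa1 and Hspb1, and in 6 for Dnajb11, Dnajc5, Hspa4l, Hspb8 and Hspe1. Of the 67 other members 8.96% shared the top library of Hspa1b in 8 of 8 groups, compared with 0.132% of all genes tested, and 23.9% against 3.02% shared it in 6 or more. Hspa1a shares sequence with Hspa1b, as given above, and members of one library share its RNA sample and depth. The 43.9 CPM of Hspa1b came from day sham exposure sham-operated b, where cerebellar markers summed to 207 CPM. Neither the within-group SDs nor these shares were computed without the 3 libraries with pituitary or cerebellar transcripts. The library with the most members at their highest was day noise sham-operated c (44 of 68, beside 32.9% of all genes tested). Next were night sham exposure ADX b (42, beside 33.2%) and night sham exposure sham-operated c (42, beside 32.6%). In that last library Hspa1b had 42.4 CPM against 21.1 and 15.1 CPM in libraries a and b, and Hspb1 184 CPM against 157 and 142 CPM. Without this library 4 of the 11 night calls were lost. Of these, Hspa5 and Hspa8 shared the top library of Hspa1b in 8 groups, Hsp90aa1 in 7 and Dnajb5 in 2. Among the calls that stayed, it was shared in 4 groups (Cryab and Dnajc13) to 8 groups (Hsp90ab1). Whether the shared peak bears on the night calls was not tested.

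**Figure D5:**
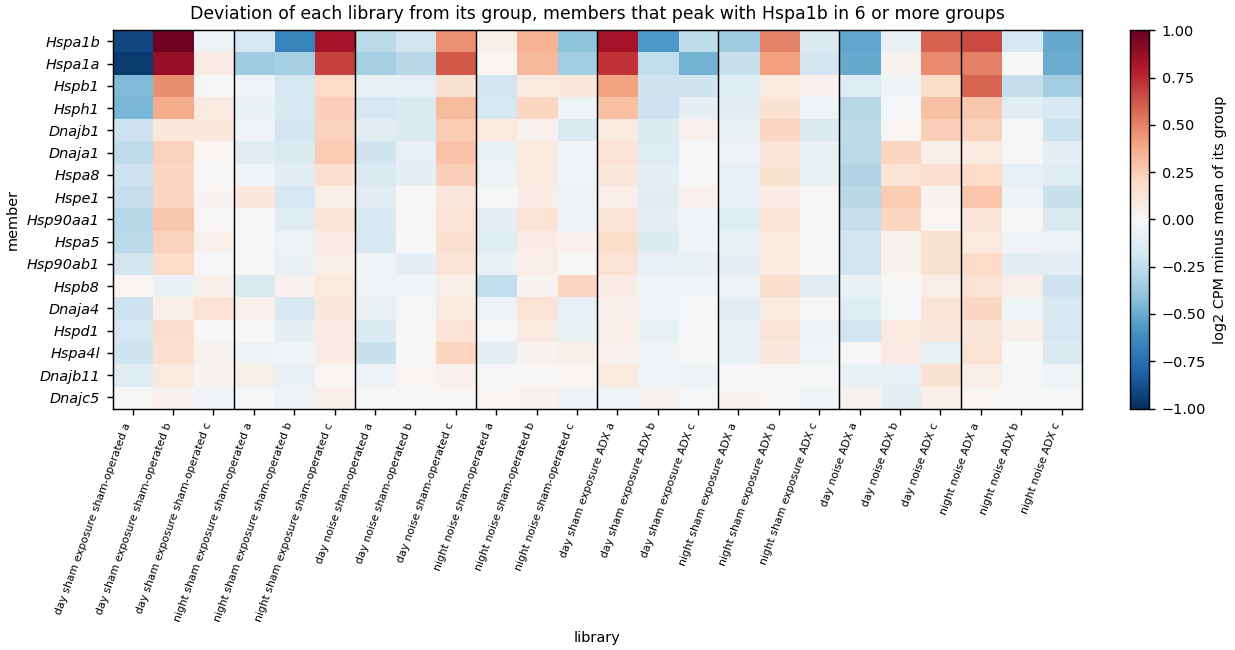
Deviation of each library from its group mean in log2 CPM (colour, from -1 to 1) for Hspa1b and the 16 members that share its highest library in 6 or more of the 8 groups; vertical lines separate groups. The rows were chosen for sharing the highest library of Hspa1b. That columns red for Hspa1b, such as night sham exposure sham-operated c, are red for most rows follows from this choice.

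Few members differed between ADX and sham-operated mice, in both directions. Averaged over noise and period, 2 of 68 members were lower in ADX mice and 1 higher, beside 1.52% of all genes lower and 1.68% higher. An unadjusted p under 0.05 was reached by 16 members (23.5%, against 16.9% of all genes), and DESeq2 called 5. The median over members was a log2 difference of -0.022 (ADX minus sham-operated), beside 0 over all genes.

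Hspb8 fell most clearly, with a mean log2 difference of -0.25 (SE 0.0505, adjusted p = 0.00941), and it passed whichever single library was left out. In sham-exposed mice at night it had 61.4, 70.1 and 72.8 CPM in sham-operated libraries a, b and c and 46.5, 54.7 and 44.8 CPM in ADX libraries, with no overlap. In sham-exposed mice by day the same gene had 62.8, 59.1 and 64 CPM and 48.3, 44.8 and 44.7 CPM (log2 -0.43, adjusted p = 0.0937). After noise the fall of Hspb8 was not seen by day (log2 0.09, adjusted p = 0.718) and was smaller at night (log2 -0.17, adjusted p = 0.663). Hspa4l had a mean log2 difference of -0.18 (SE 0.0478, adjusted p = 0.047). Dnajc7, a DnaJ protein with tetratricopeptide repeats that binds both Hsp70 and Hsp90, was higher by 0.15 (SE 0.0398, adjusted p = 0.047), and its exons overlap those of Cnp on the other strand. Over the 24 fits that each leave out 1 library, Hspa4l passed in 5 and Dnajc7 in 9. The calls of Hspa4l and Dnajc7 were lost without the 3 libraries with pituitary or cerebellar transcripts, while Hspb1 was then called lower (log2 -0.40, adjusted p = 0.00959). Only 1 of the 3 calls remained in number without day noise ADX b or c, day noise sham-operated b, night noise ADX b or c, night noise sham-operated b or c, day sham exposure sham-operated b or c, night sham exposure ADX c, or night sham exposure sham-operated a or c, and there were 5 without night noise ADX a or day sham exposure sham-operated a.

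Group by group, calls for ADX were made in 1 of the 4 pairings of period and noise, sham-exposed mice at night: 3 members were lower and 0 higher, beside 0.47% of all genes lower and 1.11% higher. They were Hspb8 (log2 -0.48, adjusted p = 0.0222), Hspa4l (-0.48, adjusted p = 0.0178) and Dnajb9 (-0.37, adjusted p = 0.0464). Hspa4l had 236, 240 and 257 CPM in sham-operated libraries and 167, 188 and 169 CPM in ADX libraries. Dnajb9 had 40.4, 38 and 43.4 CPM and 32.4, 31.1 and 31.1 CPM. Neither gene overlapped between the groups, but both were called on the same difference, and the share of all genes tested that do so was not computed. No call remained without night sham exposure ADX a or c, or night sham exposure sham-operated b or c. In the same libraries cochlear markers summed to 6890, 7620 and 7470 CPM in sham-operated and 6110, 6770 and 5090 CPM in ADX mice, and their part in the result was not tested.

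In the remaining ADX comparisons no member passed. In sham-exposed mice by day 0 were called, beside 0.0422% of all genes, with 10 members (14.7%, all genes 11.3%) at an unadjusted p under 0.05 and 1 called by DESeq2. In noise-exposed mice by day 0 were called, beside 0% of all genes, with 13 members (19.1%, all genes 11.7%) at an unadjusted p under 0.05 and 0 by DESeq2, although 5 were called without day noise ADX a. In noise-exposed mice at night 0 were called, beside 0% of all genes, with 1 member (1.47%, all genes 8.55%) at an unadjusted p under 0.05 and 0 by DESeq2. The ADX comparisons share control libraries with the noise and night comparisons, so their values are not independent of those above. Hspa1a and Hspa1b had mean log2 differences of -0.47 (adjusted p = 0.268) and -0.55 (adjusted p = 0.244), and Hspb1 had -0.39 (adjusted p = 0.0665). Among the co-chaperones Fkbp5, a glucocorticoid-induced immunophilin of the steroid receptor complex, was the 1 of 22 called, at a log2 difference of -0.90 (SE 0.157, adjusted p = 0.00501). In the other lists Pfdn1 of prefoldin (0.14, adjusted p = 0.0306) and the ER ubiquitin ligase Syvn1 (0.16, adjusted p = 0.0263) were higher in ADX mice, and no gene of mitochondrial quality control passed.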

How the data were processed

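Cochlear RNA (300 ng per library) was made into stranded mRNA libraries and sequenced as single reads of 50 bases in pools of 6, per the labels' protocols; which libraries shared a pool is not given in the sources used here. The authors deposited raw counts per gene symbol. Build mm10, TopHat2 2.0.11 and HTSeq 0.6p1 are given per the submitters' processing notes; the annotation and the strand setting are not given in the sources used here. Among the counts, 27 rows carry names that a spreadsheet turned into dates (0.214% of counts) and could not be named.

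Library totals were 18894996 to 36108962 counts. Counts as deposited were filtered (edgeR filterByExpr, leaving 16607 of 23420 rows, 3340 of which held no count), scaled by TMM and fitted over all 24 libraries with 1 coefficient per group, using edgeR 4.0.16 (quasi-likelihood F test) in R 4.3.3 with limma 3.58.1. The common biological coefficient of variation was 9.91%. Counting noise adds to the spread of members at a few CPM, such as Hspb2 (mean 4.04 CPM) and Dnajc5b (mean 1.15 CPM). The 18 contrasts were noise, night and ADX effects in each pairing of the other factors, their means, and 3 interactions, called at a Benjamini-Hochberg adjusted p under 0.05 over all genes tested. A time effect is night minus day. CPM values use TMM-scaled library sizes; lengths and positions are from GENCODE vM21 (GRCm38). Promoters are from RefSeq. The scripts were tested on simulated data.

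The members, gene lists and tests were chosen with earlier results of these data known, so no list is independent evidence of its direction. Named genes were 18 fixed chaperones, the called members of each contrast, the extremes of each family, and other chaperone genes where called. Alternatives were RLE size factors, DESeq2 1.42.0, no filter, a replicate block, leaving out each library, leaving out 3 libraries with pituitary or cerebellar transcripts, and skeletal muscle marker level as a covariate.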

Additional observations from a re-analysis of the deposited data

Results flagged for a closer look

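Noise effects of 2 members pointed in opposite directions by day and at night in sham-operated mice, with all 3 noise-exposed libraries above all 3 sham-exposed libraries by day and below all 3 at night. Dnajc27, a small GTPase with a DnaJ domain, had a log2 difference of 0.308 by day (adjusted p = 0.388) and -0.122 at night (adjusted p = 0.852). Hspa4, an Hsp110 exchange factor, had 0.114 by day (adjusted p = 0.449) and -0.021 at night (adjusted p = 0.956). By edgeR's quasi-likelihood test none of these noise effects passed. Both members were picked for this pattern, and its share among all genes tested was not computed. Whether 2 members are more than chance would give was therefore not tested. The difference between day and night in sham-operated mice alone was not tested. Averaged over surgery, the noise by time interaction was -0.056 for Dnajc27 (SE 0.106, adjusted p = 0.966) and -0.068 for Hspa4 (SE 0.0437, adjusted p = 0.915) by edgeR's quasi-likelihood test, so neither passed. In ADX mice Dnajc27 had a noise difference of -0.14 by day and 0.18 at night.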

How the results depend on the processing

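No called difference of a named gene changed direction under any alternative run. Over named genes and alternatives, 1916 values stayed on their side of the threshold, 227 lost a call and 11 gained one. DESeq2 called 1 member for noise at night in sham-operated mice, 5 for night against day in sham-exposed sham-operated mice, 10 in noise-exposed sham-operated mice and 2 in noise-exposed ADX mice. For ADX it called 1 in sham-exposed mice by day, 5 in sham-exposed mice at night and 5 on average, and 1 for the noise by ADX interaction. With the skeletal muscle covariate, 7 members were called for noise by day in ADX mice. Without the 3 libraries with pituitary or cerebellar transcripts, 2 were called for night against day in noise-exposed sham-operated mice and 2 for noise on average. Leaving out 1 library at a time gave 0 to 9 calls for noise by day in ADX mice and 3 to 6 for noise on average. For night against day it gave 0 to 2 in sham-exposed sham-operated mice, 1 to 5 in noise-exposed sham-operated mice, 0 to 3 in noise-exposed ADX mice and 7 to 13 on average. For ADX it gave 0 to 2 in sham-exposed mice at night, 0 to 5 in noise-exposed mice by day and 1 to 5 on average. Leaving out a library also lowers the number of samples; the cause of the other changes was not tested.

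Nothing in the labels says that the letters a, b and c pair the libraries, and not every same-letter pair correlated above 0.1: deviations from group means had correlations of -0.271 to 0.41 (mean 0.0156 over 84 pairs). As a hint from the data alone, 16 of 24 libraries correlated best with a library of their own letter, and the highest correlation between different letters was 0.212. With the letter as a replicate block, 2 members were called for noise by day in ADX mice (not Dnajb9 or Hspb1), 1 for night against day in sham-exposed sham-operated mice (Hspa4l, not Cryab or Dnajc13) and 1 for ADX on average (Hspb8, not Hspa4l or Dnajc7). The block moved no other count by over 1.5 times, though it ended the night calls of Hsp90ab1 and Dnajb11 in noise-exposed sham-operated mice, the ADX call of Dnajb9 in sham-exposed mice at night and the mean noise calls of Dnajb9 and Hspa13.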

Other observations

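Marker lists are given here over all libraries, as values. Erythroid markers summed to 2030 to 3940 CPM over the 24 libraries, neutrophil and myeloid marrow markers to 6220 to 12700 CPM, and glia and myelin markers to 2170 to 3800 CPM. For night against day on average, edgeR called 0 of 5 tested erythroid, 0 of 8 neutrophil and myeloid, 0 of 6 glial, 0 of 4 tested pituitary and 0 of 8 cerebellar markers. It called 1 of 16 skeletal muscle markers higher (Actn3, a fast-fibre protein), 1 of 8 neuron markers higher (Tubb3, a neuronal tubulin) and 1 of 14 cochlear markers lower (Kcne1, a potassium channel subunit of marginal cells).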
